A study of Mus musculus with 45 samples.

Results

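The genes described are 36 genes of mitosis, chosen by name from a table of 23575 genes and found in it without exception. They fall into 7 roles. CDK1 with its cyclins and helpers of mitotic entry gives 6 members (Cdk1, Ccna2, Ccnb1, Ccnb2, Cks2 and Cdca3), and the mitotic kinases give 6 (Plk1, Aurka, Aurkb, Bub1, Ttk and Nek2). The anaphase-promoting complex with the spindle checkpoint gives 4 (Ube2c, Cdc20, Bub1b and Mad2l1), and the centromere, kinetochore and passenger complex give 5 (Birc5, Cdca8, Cenpa, Cenpe and Cenpf). Spindle motors and microtubule organisers give 9 (Kif11, Kif2c, Kif4, Kif20a, Kif23, Tpx2, Nusap1, Prc1 and Hmmr), cytokinesis gives 3 (Racgap1, Ect2 and Anln), and proteins of chromosomes or of dividing cells in general give 3 (Top2a, Mki67 and Pclaf). The list was drawn up by name and role with earlier results of these data known, among them falls of Ube2c, Cenpa and Pclaf in wild-type cells.

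The study followed mouse neural progenitor cells through reprogramming to pluripotency by long-read RNA sequencing in 45 libraries. The progenitors came from O4G, an R1 embryonic stem cell line with a GFP reporter under the Oct4 promoter, and were stably transfected. Genotypes are wild type, OKMS-Luciferase-AS and OKS-Luciferase-AS, of which the last lacks Myc by its name, and doxycycline switches the factors on. What the luciferase part does is not said in the labels. Day 0 is the progenitor in its own medium, N2B27 with EGF, FGF-2 and heparin. Induced cells of both systems, and a wild-type control without factors, were held in medium with serum, LIF and doxycycline, called FBS-LIF with dox below. The control was sampled at day 2 only. Some induced cultures were moved to 2i-LIF, a medium with LIF, CHIR-99021 and PD0325901, at day 6 for R9 libraries and on a day not stated for R10. Embryonic stem cells of lines O4G, R1 and R1-Clone3 were wild type and kept in 2i-LIF.

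Direct cDNA from poly(A)-enriched RNA was sequenced in 22 libraries (R9) and PCR-amplified cDNA from total RNA in 23 (R10), so tests stay within R9 or within R10 unless both are named. Reads on genes ran from 447990 to 1390424 in R9 and from 566599 to 4236442 in R10. Each system has 1 library per day, so a test of days or systems rests on libraries of different cultures or days. The labels do not say that replicates came from separate cultures, so p-values measure only the spread between these libraries. The progenitors carried neural progenitor markers, with a summed level of 5438 to 8545 CPM (reads scaled to a common depth) over 10 genes, although Sox1 was at 0 in all 8 progenitor libraries. The stem cells carried 11694 to 14669 CPM of 11 pluripotency genes. Mitochondrial genes took 0.124 to 0.319% of reads in the wild-type R10 libraries of days 0 and 2 and in the R1 stem cell library without a replicate number, against 0.730 to 2.35% in all other R10 libraries. In R9 that share was 0.310 to 0.990%.

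A cell enters mitosis when CDK1 is activated by A-type and B-type cyclins. Aurora and Polo-like kinases then build the spindle, and the spindle checkpoint holds the anaphase-promoting complex back until every chromosome is attached. CDC20 and the ubiquitin-conjugating enzyme UBE2C then let that complex destroy cyclin B and securin, and the cell divides by cytokinesis. Most of these genes are transcribed mainly in the G2 phase and in mitosis, so in bulk RNA their level is widely read as a sign of dividing cells. In bulk RNA, fewer dividing cells and less mitotic RNA per cell cannot be told apart.

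Members that are switched on together late in the cycle are known to carry promoter elements bound by the DREAM and MuvB complexes, the cell cycle genes homology region (core TTTGAA, or the variant TTCGAA), and NF-Y sites (CCAAT). Genes switched on for DNA replication are known for E2F sites, here searched as TTTCCCGC. The promoters are from RefSeq (GRCm38.p6, 250 bases before to 50 after each start), where 32 of 36 members matched. Tpx2, Ccna2, Kif20a and Aurkb had no entry. The windows of 3 members with these elements and of Pclaf, which differs, are printed in the gene's direction, with each match on either strand in capitals. Ccnb2 lies at chr9:70421505-70421804 (minus strand), Cdc20 at chr4:118437294-118437593 (minus strand), Ube2c at chr2:164769679-164769978 (plus strand) and Pclaf at chr9:65890073-65890372 (plus strand). In Ube2c 1 pair of CCAAT matches on opposite strands overlaps. A match on the other strand is shown as its reverse complement.
Ccnb2: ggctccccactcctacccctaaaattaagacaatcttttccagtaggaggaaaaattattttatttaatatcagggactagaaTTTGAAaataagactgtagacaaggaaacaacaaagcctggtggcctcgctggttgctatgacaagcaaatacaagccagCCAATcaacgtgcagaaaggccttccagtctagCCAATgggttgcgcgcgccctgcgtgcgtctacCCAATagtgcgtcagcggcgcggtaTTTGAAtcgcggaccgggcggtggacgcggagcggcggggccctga
Cdc20: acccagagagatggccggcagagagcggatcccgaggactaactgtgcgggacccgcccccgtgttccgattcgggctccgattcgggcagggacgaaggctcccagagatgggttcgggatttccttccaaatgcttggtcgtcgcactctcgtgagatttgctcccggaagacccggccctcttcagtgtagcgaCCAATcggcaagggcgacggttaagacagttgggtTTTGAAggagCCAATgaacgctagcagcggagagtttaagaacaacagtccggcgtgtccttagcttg
Ube2c: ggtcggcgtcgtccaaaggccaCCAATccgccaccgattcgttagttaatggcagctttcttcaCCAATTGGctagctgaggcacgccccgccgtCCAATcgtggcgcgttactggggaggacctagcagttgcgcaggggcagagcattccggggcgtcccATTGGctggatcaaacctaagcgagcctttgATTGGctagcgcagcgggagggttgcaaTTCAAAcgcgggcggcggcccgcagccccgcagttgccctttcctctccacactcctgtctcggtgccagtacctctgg
Pclaf: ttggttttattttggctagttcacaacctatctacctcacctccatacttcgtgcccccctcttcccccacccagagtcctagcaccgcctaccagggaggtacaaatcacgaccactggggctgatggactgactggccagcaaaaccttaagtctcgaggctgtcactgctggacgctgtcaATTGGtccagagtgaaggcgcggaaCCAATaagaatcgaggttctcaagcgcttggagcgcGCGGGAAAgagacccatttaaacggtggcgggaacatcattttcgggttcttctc
The Cdc20 window holds TTTGAA 18 bases before the start, and the Ube2c window holds it on the other strand with its first base 29 bases before the start. The Ccnb2 window holds it at base 5 after the start and again 167 bases before. The Pclaf window holds neither form of this core, but it has 1 TTTCCCGC match, on the other strand, 5 bases before the start, where the start is base 1 and no base 0 is counted.

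Of the 32 members with a promoter, 23 held TTTGAA (71.9%), as did 5466 of the 27025 genes with an entry in the RefSeq promoter set (20.2%) and 4 of 29 genes on a list of DNA replication genes (13.8%). With either form of the core, counted from 60 bases before the start on, the numbers were 22 of 32 members (68.8%), 1836 of those 27025 genes (6.79%) and 2 of 29 replication genes (6.90%). CCAAT was present in 27 of 32 members (84.4%), 41.1% of that set and 18 of 29 replication genes (62.1%). TTTCCCGC was found in 1 of 32 members, in 1.24% of that set and in 6 of 29 replication genes (20.7%). These are letter matches, not measured sites.

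The first comparison asks how cells without factors change in the induction medium with doxycycline. At day 2 of FBS-LIF with dox, all 36 members had fallen in R10, by 3.39 (Cenpf) to 6.93 (Ube2c) on the log2(CPM + 1) scale. A change is called here when limma's Benjamini-Hochberg adjusted p is under 0.05 and the log2 difference is at least 1 in size. By that rule 36 of 36 members were lower, where 11.9% of all 14688 genes tested were lower, and the median member difference was -4.99 against 0.12 over all genes. The median member kept 1.86% of its progenitor CPM. Together the members gave 852 reads in the 2 day 2 libraries and 43483 in the 2 progenitor libraries.

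The mitotic entry genes fell with the rest. Cdk1 stood at 405 and 453 CPM in the R10 wild-type progenitors and at 16.8 and 24.7 CPM at day 2, a log2 difference of -4.32 ± 0.26 (SE). Ccnb1, the cyclin that activates CDK1 at mitotic entry, went from 196 and 212 CPM to 3.52 and 4.94 CPM (-5.31 ± 0.27). Cks2, a small subunit of the CDK complex, fell from 378 and 391 CPM to 23.5 and 17.5 CPM. For each of these genes both day 2 libraries lay far under both progenitor libraries. Among the kinases, Plk1, which acts at centrosomes and kinetochores, fell from 249 and 259 CPM to 3.13 and 1.98 CPM, and Aurka, the spindle pole kinase, from 77.8 and 114 CPM to 3.91 and 2.96 CPM.

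Partners of the anaphase-promoting complex and centromere genes fell as well, Ube2c furthest of the 36. Ube2c, whose product feeds ubiquitin to the anaphase-promoting complex, went from 654 and 700 CPM to 3.91 and 5.27 CPM, a log2 difference of -6.93 ± 0.24 (limma adjusted p = 0.000707). Cdc20, which activates the anaphase-promoting complex, fell by 6.03 ± 0.26 and Birc5 (survivin), a subunit of the passenger complex, by 6.32 ± 0.24 on the log2 scale. Cenpa, the histone variant that marks centromeres, fell from 259 and 346 CPM to 1.57 and 3.29 CPM (-6.50 ± 0.35). The members with the smallest falls were Cenpf (-3.39 ± 0.32), a kinetochore protein that kept 8.51% of its progenitor level, Anln (-3.52 ± 0.44), Ect2 (-3.58 ± 0.38) and Mad2l1 (-3.64 ± 0.32).

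Among the spindle organisers, Nusap1 fell from 156 and 152 CPM to 3.13 and 2.64 CPM and Tpx2 from 177 and 154 CPM to 8.22 and 8.57 CPM. Prc1 fell from 193 and 196 CPM to 8.22 and 2.96 CPM. Of the last role, Top2a, the topoisomerase that untangles sister chromosomes, fell from 597 and 544 CPM to 17.6 and 8.24 CPM. Mki67, which coats mitotic chromosomes and is the Ki-67 antigen, fell from 254 and 170 CPM to 3.52 and 0.329 CPM, the last being 1 read (-6.41 ± 0.61). Pclaf, a PCNA-binding protein of DNA replication and repair, fell from 408 and 573 CPM to 7.05 and 2.31 CPM (-6.55 ± 0.46). The day 2 libraries lay under the progenitor libraries for each of the 36 members, and the share of all genes that do so was not counted. Since the falls of Ube2c, Cenpa and Pclaf were known when the list was drawn up, they are no independent evidence of its direction.

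The single R9 control library gave the same direction. All 36 members were called lower there too, against 10.1% of 13456 genes tested, with fitted differences of -8.87 to -2.90 and a median of -5.27. The library held 114 reads of the members, where the 2 wild-type R9 progenitor libraries held 12284. In that control library 12 members were at 0 reads (Ccna2, Aurkb, Bub1, Bub1b, Kif11, Kif2c, Kif4, Kif23, Nusap1, Prc1, Hmmr and Top2a) and 15 had 1 to 3 reads. With the members at 0 set to 3 reads, the median difference was -4.28, and Top2a was at least 110-fold lower. With 1 treated library, its spread is taken from the other libraries of the fit, and with quantile normalization no gene at all was called in R9 (0 members).

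**Figure D1:**
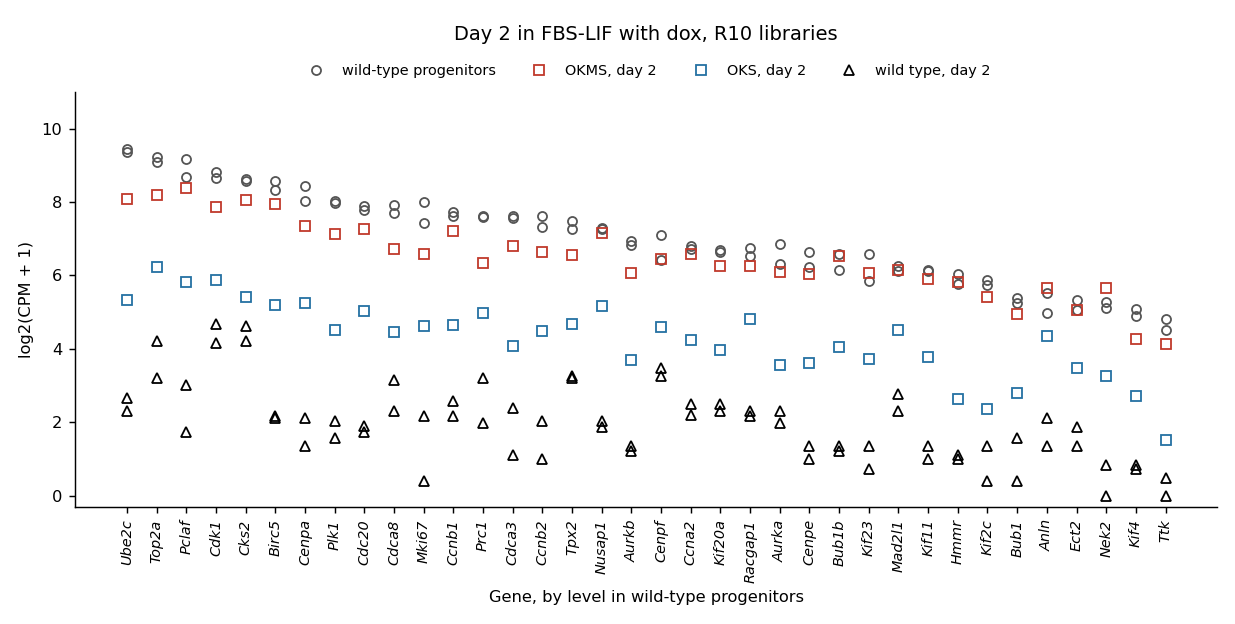
Level of each mitosis gene in R10 as log2(CPM + 1), 1 symbol per library, for wild-type progenitors (circles), OKMS and OKS cells at day 2 (squares) and wild-type cells at day 2 (triangles), all day 2 cells in FBS-LIF with dox. Genes run from high to low in progenitors. The triangles lie lowest for each gene, and the OKS square lies under the OKMS square for each gene.

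Other genes of the cell cycle were examined as lists, also drawn up with earlier results known. Of 36 other mitosis genes, such as the kinetochore and cohesin factors, 35 were lower in the R10 control (median -4.34), and the exception was Ckap5, a microtubule polymerase (-0.63). Of 36 DNA replication genes, 33 were lower with a smaller median of -2.87. The 15 genes of anaphase-promoting complex subunits and Fzr1, which are not known as genes of one phase, had 2 lower (Anapc15, -1.36, and Cdc16, -1.04) and a median of -0.37. Among 20 transcription factors and DREAM complex genes, 11 were lower and 1 was higher. Foxm1 (-3.49) and Mybl2 (-2.89), activators of mitotic genes, fell, while Rb1 rose (1.64). Of 13 G1 regulators, 5 were lower and 1 higher. Ccnd1, the cyclin that answers growth factors, fell by 5.24 on the log2 scale, the CDK inhibitor gene Cdkn1a fell by 2.79, and the CDK inhibitor gene Cdkn2b rose by 1.61.

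Astrocyte markers moved with these falls. Their summed level over 8 genes was 1929 and 2027 CPM in the R10 wild-type progenitors and 11743 and 11762 CPM at day 2. Of the 8 genes, 5 were higher (Gfap, Clu, Aqp4, Id3 and Aldoc), where 14.9% of all genes were, Aqp4 was at 0 in the progenitors and none was at 0 at day 2. The sum of 9 mesenchymal markers went from 248 and 339 CPM to 1006 and 1186 CPM with Col1a2 at 0. The sum of the neural progenitor markers did not separate, with 6784 and 5719 CPM in the progenitors and 5783 and 8856 CPM at day 2. The part of these markers in the falls of the mitosis genes was not tested.

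The second comparison sets the factor-carrying cells against the wild type, both at day 2 in the same medium. In each chemistry the OKMS and OKS libraries stood as replicates of 1 group with no term for the system. The gap between the systems is thus part of the error of the test. In R10 the mean of log2(CPM + 1) over the 36 members was 6.49 in the OKMS library, 4.26 in the OKS library, and 2.12 and 1.83 in the wild-type libraries. Both factor libraries were above both wild-type libraries for each member, but how many of all genes separate in this way was not counted. Limma called 10 members higher (Ccnb2, Ube2c, Cdc20, Birc5, Cenpa, Nusap1, Racgap1, Top2a, Mki67 and Pclaf), where 0.714% of 15402 genes were called higher. All 36 had an unadjusted limma p under 0.05, but the share of all genes at that p is not given. The median member difference was 3.39 and the range 2.14 to 4.74.

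The members with the highest R10 differences were Pclaf (4.74 ± 0.78), Cenpa (4.57 ± 0.70), Birc5 (4.43 ± 0.77) and Cdc20 (4.34 ± 0.71). Pclaf was at 336 CPM in the OKMS library and 55.2 CPM in the OKS library, and Cenpa at 163 and 36.9 CPM, so both arms of the factor group differ widely. Without the OKMS library, which leaves OKS alone against the wild type, no member was called. Without any 1 of the other 3 libraries 32 members were called, where 2.3% (without OKS), 1.93% (without wild-type replicate 2) and 3.7% (without wild-type replicate 3) of all genes were. On the same reads edgeR called 32 (2.17% of all genes) and DESeq2 35 (3.13%), and with quantile normalization no member was called. These factor libraries held 1.51 and 1.64% mitochondrial reads against 0.319 and 0.165% in the wild type, and 4792 (OKMS) and 10028 (OKS) CPM of astrocyte markers. The part of either in the result was not tested.

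In R9, where the mitochondrial share was 0.708 and 0.727% against 0.688%, 27 of 36 members were called higher against 0.832% of 14776 genes, with a median of 3.61. The wild-type arm is the 1 library with 114 member reads, so its spread is taken from the factor libraries, and its 12 members at 0 were all among the called. With those 12 set to 3 reads there, the median was 2.65. The members not called were Aurka, Ttk, Nek2, Mad2l1, Cdca8, Cenpe, Cenpf, Ect2 and Anln. Of the called, Cdc20 stood at 160 CPM in the OKMS library and 68.2 CPM in the OKS library against 4.24 CPM in the wild type, and Ube2c at 254 and 78.9 CPM against 4.24 CPM. The R9 calls were 0 with quantile normalization or without the filter on low values, and 6 with DESeq2 (0.102% of all genes). This comparison and the preceding share the wild-type day 2 libraries, so they are not independent.

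Both conditions were also fitted as a difference of differences, which asks whether the change from progenitor to day 2 differs between wild-type and factor-carrying cells. Here too OKMS and OKS libraries were pooled as 1 group. Their gap, with a median of 2.28 over the members at day 2 in R10, enters the error and so the p-values. In R10 no member was called (0% of 16496 genes). All 36 estimates were positive with a median of 3.26 and an unadjusted limma p under 0.05, and the adjusted p lay between 0.182 and 0.549. Because the share of all genes at that unadjusted p is not given, the count alone says little about the members. In R9, 4 members were called against 0.0424% of 16526 genes. They were Top2a (6.77 ± 0.60, limma adjusted p = 0.0255), Nusap1 (6.17 ± 0.52), Kif23 (5.64 ± 0.56) and Prc1 (5.59 ± 0.63). All 4 are at 0 reads in the single wild-type day 2 library of R9, so these fitted sizes depend on the added 1. Without any 1 of the other R9 libraries of that fit, none of the 4 was called. Without the OKS day 2 library all 36 were called in R10, where 6.48% of all genes were.

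Before induction, factor-carrying progenitors were set against wild-type progenitors in the same medium. None of the members was called in either chemistry, where 1.51% of 14017 genes were called in R10 and 0% of 14014 in R9. The median member difference was 0.06 in R10 and -0.27 in R9, with 4 members in R10 and 0 in R9 at an unadjusted limma p under 0.05.

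The time course shows how each system came back from day 2. In R9 the OKMS libraries had a mean of log2(CPM + 1) over the members of 6.97 at day 0, 6.25 at day 2, 6.99 at days 4 and 6, 7.10 at day 10, 7.25 at day 14 and 7.38 at day 20. The OKS libraries stood at 6.89, 4.58, 4.98, 5.20, 4.71, 6.79 and 7.45 on the same scale and days. The OKMS cells thus dipped at day 2 only, and the OKS cells stayed low through day 10 and were back at the OKMS level at day 20. In R10 the OKMS means were 7.07, 6.49, 7.02, 7.24, 7.20 and 7.85 at days 0, 2, 4, 6, 10 and 18, and the OKS means were 7.01, 4.26, 4.96 and 7.29 at days 0, 2, 6 and 18.

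**Figure D2:**
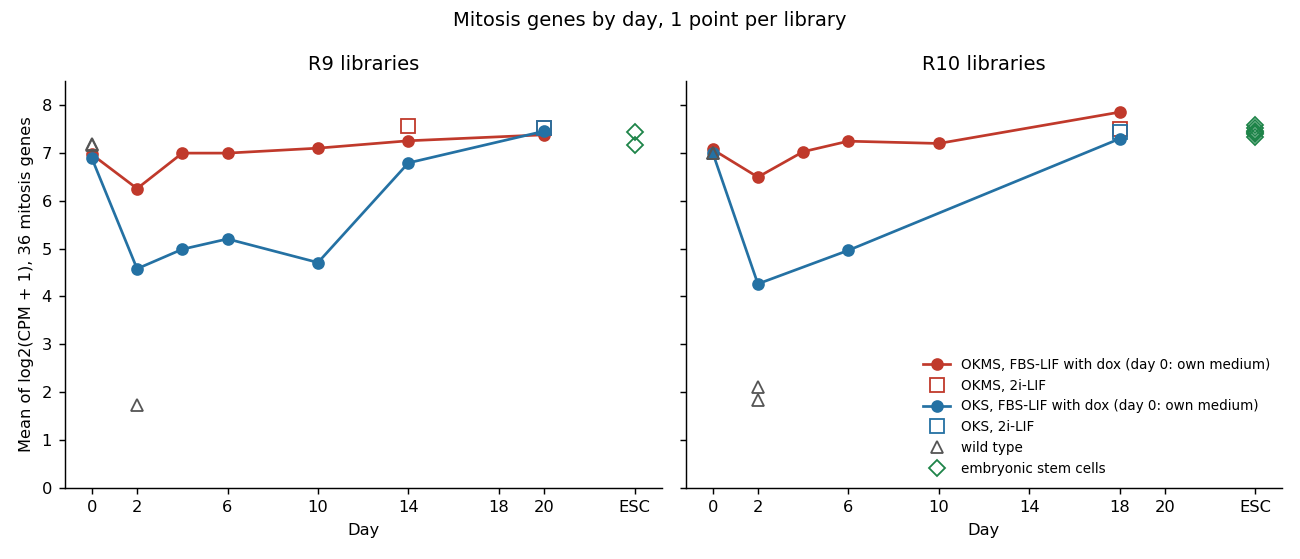
Mean of log2(CPM + 1) over the 36 mitosis genes by day, 1 point per library, for R9 (left) and R10 (right). Lines join OKMS (red) and OKS (blue) libraries, squares are 2i-LIF, triangles wild type and diamonds embryonic stem cells. The wild-type libraries of day 2 lie lowest at 1.74 in R9 and at 2.12 and 1.83 in R10.

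As a share of each system's own day 0 level, the median member stood at 56.7% in OKMS and 19.1% in OKS at day 2 in R9, and at 67.3% and 13.7% in R10. All 36 members were under 50% of day 0 in OKS at day 2 in both chemistries, and 8 (R9) and 3 (R10) were in OKMS. At day 10 in R9 the medians were 106% in OKMS and 20.3% in OKS, and at day 20 they were 140% and 154%. Among the induced days alone, with day 0 left out, day 2 was the lowest of OKMS for 32 members in R9 and 31 in R10. For OKS in R9 the lowest induced day was day 2 for 19 members and day 10 for 15, and the highest was day 20 for 34. The day 10 OKS library was the shallowest of R9, with 447990 reads on genes and 558 member reads. In it Kif11 and Ect2 had 1 read, Nek2 and Kif4 had 2 and Aurkb had 3, so their lowest day is uncertain.

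Ube2c follows this course in full. Its R9 OKMS values were 254, 484, 587, 529, 654 and 707 CPM at days 2, 4, 6, 10, 14 and 20, and its OKS values were 78.9, 101, 97.7, 78.1, 383 and 783 CPM. Their day 0 values were 462 and 459 CPM. Ccnb1 shows a wider gap, with R9 OKMS values of 116, 173, 233, 233, 290 and 391.5 CPM and OKS values of 21.4, 32.4, 37.5, 24.5, 140 and 295 CPM. The OKMS value was the higher on each of these days for Ccnb1, and on each day but day 20 for Ube2c.

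Anln, the anillin that builds the cytokinetic ring, kept a larger share in OKS than any other member at days 4, 6 and 10 in R9 and at days 2 and 6 in R10. In R9 it was at 67.5 CPM at day 0 and 13.4, 42.0, 45.5, 55.8, 170 and 117 CPM from day 2 to day 20 in OKS, so it held 82.7% of day 0 at day 10. In OKMS it was at 59.2 CPM at day 0 and then at 70.1, 157, 221, 203, 106 and 110 CPM. Its highest R9 values came at day 6 in OKMS and at day 14 in OKS, in each case before the last day. Kif11, the motor that pushes spindle poles apart, had 32 reads in OKS at day 0 (54.0 CPM), 3 reads at day 2 and 1 read at day 10. That 1 read (2.23 CPM) lies under the level of 3 reads in its library, 6.70 CPM, so no share of day 0 is given for it.

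Tests of the days fit the system (OKMS or OKS) as an additive term, which takes out a constant gap between the systems. A gap that changes from day to day stays in their error. In R10, days 4 and 10 have an OKMS library only. Day 2 against day 0 called no member in R10 (0.571% of 18212 genes in either direction), with a median of -1.69. An unadjusted limma p under 0.05 was reached by 24 members, and the share of all genes that reached it is not given. In R9 it called 1 member lower (1.17% of 19357 genes), Prc1 (-2.22 ± 0.44), a bundler of the central spindle. No member was called without the day 2 OKMS, the day 2 OKS or the day 0 OKS library. The F test over all R9 days called Mad2l1 and Prc1 (10.7% of 19357 genes). It called no member with a pseudocount of 0.25, with quantile normalization, or without any 1 of 9 libraries (both of days 2, 4, 6 and 14 and the OKS library of day 20), and 10 without the day 10 OKMS library (10.8% of all genes), 9 without the day 0 OKMS library (8.96%) and 4 without the day 20 OKMS library (5.83%). On the same reads edgeR called more members and more genes, with 29 members at day 2 (7.72% of all genes tested) and 36 over all days (23.6%).

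The return from day 2 to the last day was called more widely. Day 20 against day 2 in R9 called 27 members higher (8.69% of 19357 genes) with a median of 2.07. Kif11 (2.85 ± 0.93, with 3 reads in OKS at day 2), Hmmr (2.78 ± 0.66) and Ccnb1 (2.73 ± 0.59) had the highest differences among the called. Aurkb, Kif4, Kif23, Nusap1, Racgap1, Ect2, Anln, Mki67 and Pclaf were not called, and Mki67 (0.54 ± 0.56) and Pclaf (0.69 ± 0.67) had the lowest differences of the 36. The calls rest on few libraries, with 0 left without the day 20 OKS library, 1 without the day 2 OKS library and 3 without the day 2 OKMS library. Day 18 against day 2 in R10 called 15 members higher (4.79% of 18212 genes) with a median of 2.32, and none without any 1 of the 4 libraries of those days. These R10 libraries had 2.03 and 2.04% mitochondrial reads at day 18 and 1.51 and 1.64% at day 2, and the part of that in the result was not tested.

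Markers of cell type moved with this return. In R9 the summed level of 11 pluripotency genes was 101 (OKMS) and 140 (OKS) CPM at day 2 and 10809 and 9403 CPM at day 20, with 10 of the 11 called higher. Dppa4, Sall4 and Tfcp2l1 were at 0 in both day 2 libraries. The 10 neural progenitor genes summed to 6716 and 9906 CPM at day 2 and 387 and 711 CPM at day 20, with 7 of the 10 called lower (12.2% of all genes) and Olig2 and Hes5 at 0 in both day 20 libraries. In R10 the pluripotency sum went from 164 and 178 CPM at day 2 to 16242 and 6528 CPM at day 18 (11 of 11 higher), and the neural progenitor sum from 4263 and 7796 CPM to 447 and 962 CPM (6 of 10 lower, against 9.72% of all genes). Astrocyte genes were lower for 5 of 8 in both chemistries, with 1 of 8 higher in R9. The part of these markers in the return of the mitosis genes was not tested.

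Against day 0, the last day called no member. For day 20 in R9 the median was 0.52 and 2 members had an unadjusted limma p under 0.05, where 16.6% of 19357 genes were called. For day 18 in R10 the median was 0.56 and 3 members passed p under 0.05, where 13.8% of 18212 genes were called. With edgeR, 6 members were called in R9 (18.2% of all genes) and 1 in R10 (13.3%), which as shares of 36 lie under those over all genes.

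**Figure D3:**
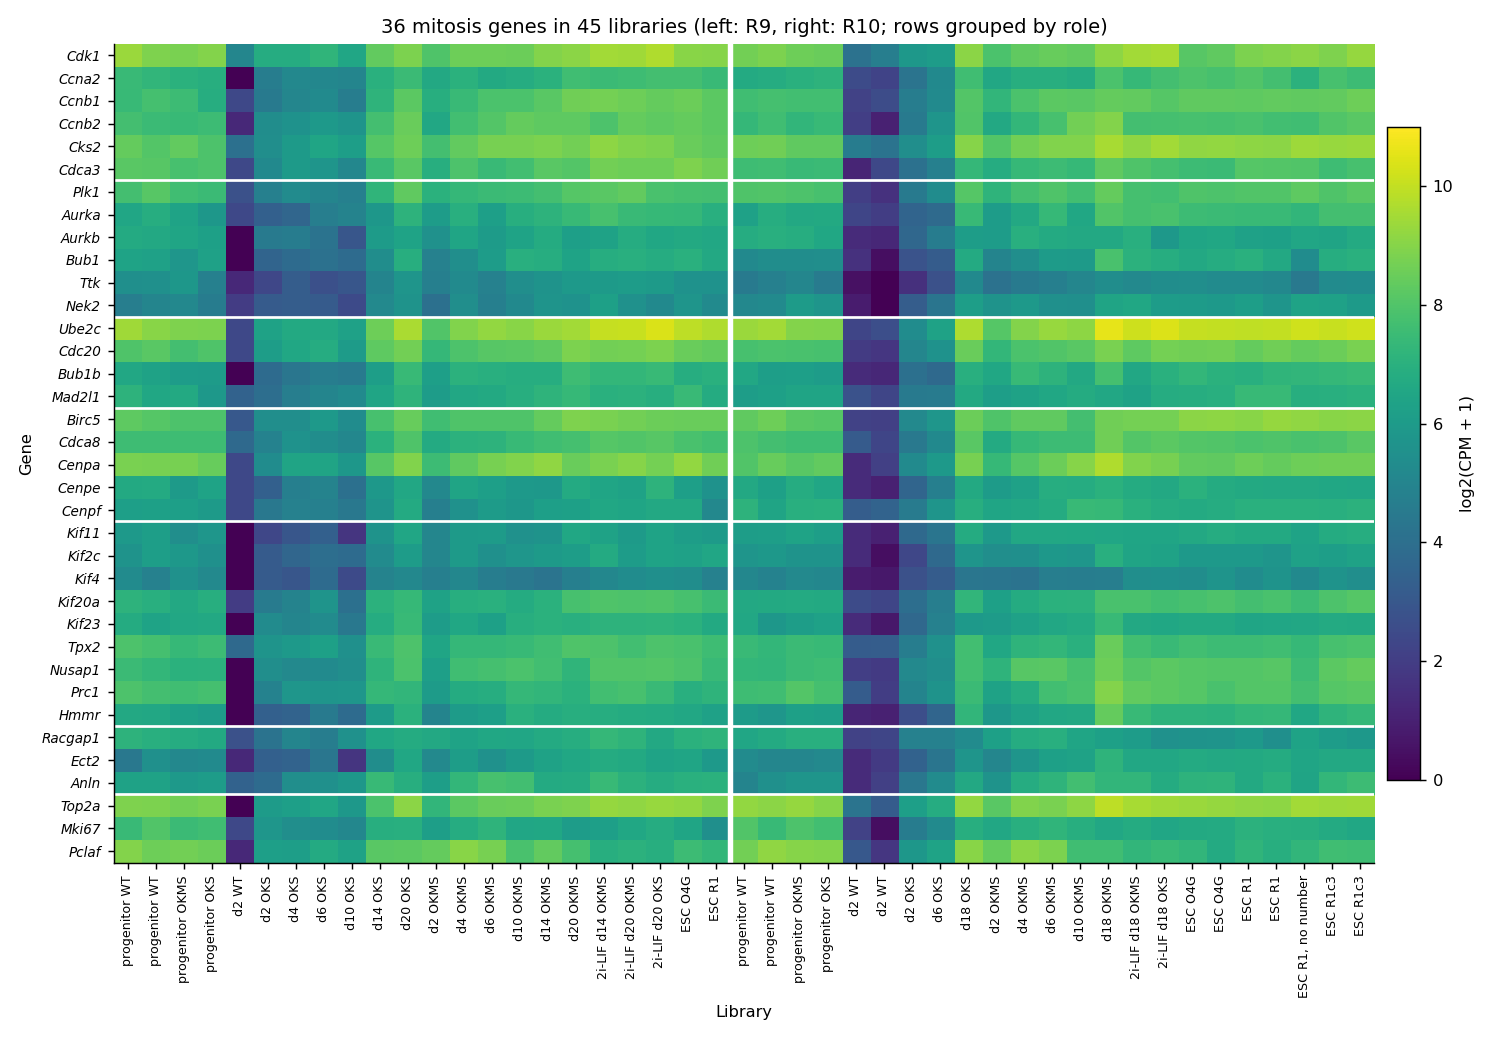
Level of the 36 mitosis genes (vertical axis, grouped by role) in all 45 libraries (horizontal axis; R9 left and R10 right of the white line) as log2(CPM + 1) in colour. The dark columns are the wild-type libraries of day 2, and the OKS libraries up to day 10 in R9 and day 6 in R10 are darker than the OKMS libraries of the same days.

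The next comparison sets OKMS against OKS over days 2 to 20 in R9, with the day as a block. Limma called 30 of 36 members higher in OKMS (6.93% of 14277 genes), with a median of 1.39 and a range of 0.63 to 2.06. The fully called roles were mitotic entry, the kinases, the anaphase-promoting complex and checkpoint, and cytokinesis. Kif11 (2.06 ± 0.46), Ccnb1 (2.01 ± 0.30), Aurka (1.85 ± 0.32), Ect2 (1.82 ± 0.42) and Bub1b (1.75 ± 0.31) had the highest differences. Kif11 and Ect2 had 1 read each in the OKS library of day 10, so their place in that order is uncertain. The members not called were Cenpf (0.63 ± 0.25), Mki67 (0.63 ± 0.31), Prc1 (0.76 ± 0.24), Tpx2 (0.89 ± 0.23), Kif23 (0.91 ± 0.30) and Kif4 (0.93 ± 0.40), all of positive sign.

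Day by day, the gap lay in the first 4 induced days sampled. At days 2, 4, 6 and 10 all 36 members were higher in OKMS, with medians of 1.76, 1.99, 1.77 and 2.47, and 30, 34, 34 and 35 of them were at least 1 higher on the log2 scale. The share of all genes at least 1 higher in OKMS was 19.4, 18.9, 22.9 and 28.3% on those days. At day 14, 30 members were higher with a median of 0.59, and at day 20, 17 were higher with a median of -0.06. At least 1 higher were 4 members at day 14, where 24.2% of all genes were, and 0 at day 20, where 12.7% were.

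**Figure D4:**
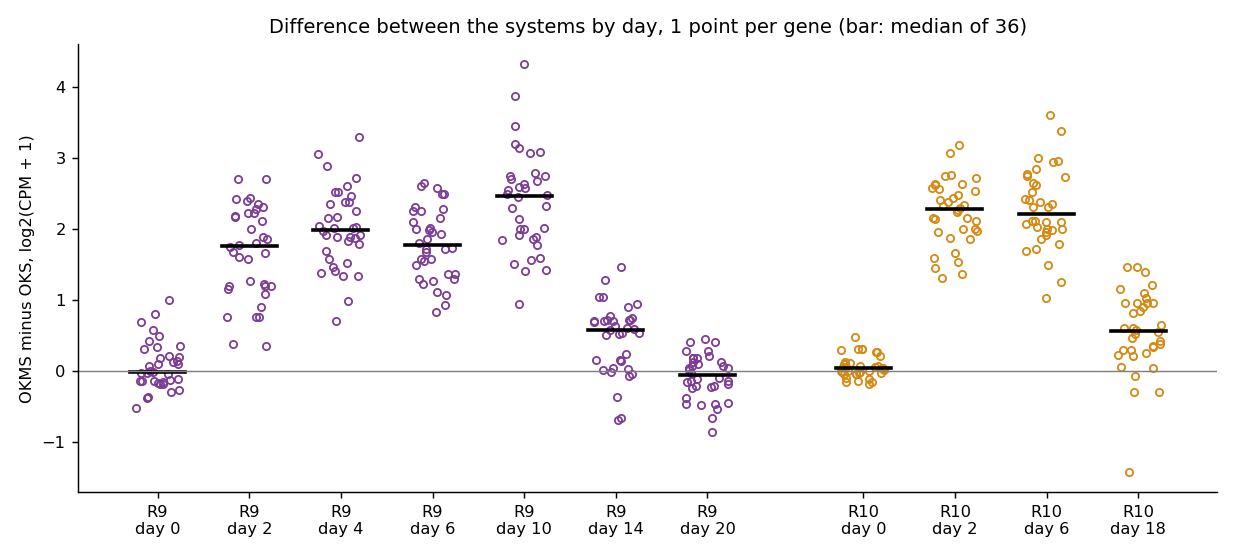
Difference OKMS minus OKS on the log2(CPM + 1) scale for each mitosis gene by day, 1 point per gene, in R9 and R10, with the median over genes. The median is -0.00426 at day 0 and 2.47 at day 10 in R9 and is -0.06 at day 20, and in R10 it is 2.28 at day 2 and 2.21 at day 6.

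In R10, with 3 days per system, all 36 members were at least 1 higher in OKMS at days 2 and 6, where 12.2 and 17.0% of all genes were. At day 18, 32 were higher with a median of 0.56, and 4 were lower, of which Pclaf (-1.42) was the lowest. On that day 7 members were at least 1 higher, where 17.6% of all genes were. Pclaf was at 196 CPM in OKMS and 525 CPM in OKS at day 18. The test over these days called no member (0% of 15135 genes), with a median of 1.66 and adjusted p from 0.235 to 0.442. At an unadjusted limma p under 0.05 there were 35 members, with no share of all genes given beside them. Without the day 18 pair 30 members were called, where 3.3% of all genes were.

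Of the other lists in R9, replication and other mitosis genes were also higher in OKMS. Of 36 other mitosis genes, 23 were higher in OKMS, and of 36 replication genes 26 were, with a median of 1.41 against 1.39 for the members. The anaphase-promoting complex subunits gave 0 of 15 calls. Over all genes, 11% of 14277 were lower in OKMS. Of 13 G1 regulators, 4 were lower and none higher, and these were Ccnd2 (-1.86), Cdkn1b (-1.09), Cdkn2b (-1.24) and Cdkn2c (-2.48), of which the last 3 encode CDK inhibitors. Astrocyte markers moved the other way from the members, with 6 of 8 lower in OKMS and Gja1 higher. Their summed level in R9 OKS was 7635, 7344, 7020, 6648, 2983 and 652 CPM from day 2 to day 20, and in OKMS it was 4394, 1596, 1956, 1824, 1388 and 307 CPM. Their part in the gap was not tested.

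Late cultures in 2i-LIF were paired with cultures of the same system and day in FBS-LIF with dox. In R9 the comparison over 3 pairs called 1 member lower, a share of the 36 under the 3.93% of all 15482 genes. It was Pclaf, at 120, 134 and 118 CPM in 2i-LIF against 323, 217 and 299 CPM in the paired cultures (-1.15 ± 0.22, limma adjusted p = 0.00536). The median member difference was 0.19, and 6 members had a negative sign. Besides Pclaf these were Mad2l1 (-0.24 ± 0.21), at 127, 132 and 120 CPM in 2i-LIF against 143, 164 and 142 CPM, Ccnb2 (-0.15 ± 0.20), at 243, 341 and 307 CPM against 312, 308 and 359 CPM, and 3 with smaller differences. Of those, Hmmr (-0.11 ± 0.22) was at 115, 107 and 105 CPM against 108, 118 and 128 CPM. Cenpa (-0.05 ± 0.22) was at 436, 512 and 416 CPM against 581, 360 and 489 CPM. Mki67 was at 72.1, 93.5 and 111 CPM against 92.9, 66.5 and 121 CPM, with a difference of -0.000342 ± 0.24. For Pclaf and Mad2l1 the media did not overlap, while for the other 4 they did. Among members of positive sign, Ube2c was at 1034, 1083 and 1330 CPM in 2i-LIF against 654, 707 and 783 CPM. Cdk1 was at 707, 690 and 829 CPM against 500, 549 and 451 CPM. Neither of them overlapped between the media, and neither was called. How many of all genes lacked overlap between the media was not counted in either chemistry, and Mad2l1 was not called.

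In R10 no member was called (1.22% of 15446 genes) over 2 pairs, 2 had an unadjusted limma p under 0.05, and Pclaf again had a negative difference (-1.01 ± 0.34, limma adjusted p = 0.194). The R10 Pclaf values were 152 (OKMS) and 167 (OKS) CPM in 2i-LIF and 196 and 525 CPM in FBS-LIF with dox, so that fall lies mostly in the OKS pair. The R10 signs were split, with 20 members negative and 16 positive. Of the 16, Kif4 had the highest difference (0.94 ± 0.44), at 42.3 and 43.8 CPM in 2i-LIF against 25.2 and 19.2 CPM, and Cdk1 the next (0.43 ± 0.28), at 719 and 751 CPM against 553 and 537 CPM. The other 14 lay between 0.001636 (Ccnb1) and 0.22 (Kif20a), and all of these but Birc5 overlapped between the media.

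Markers of the starting cells moved with the medium too. The 8 astrocyte genes summed to 94.6 to 126 CPM in the R9 cultures in 2i-LIF and 307 to 1388 CPM in their pairs, with 3 of 8 called lower and Aqp4 at 0 in all 3 libraries in 2i-LIF. The 10 neural progenitor genes summed to 264 to 294 CPM and 387 to 1052 CPM, with 2 of 10 called lower and Olig2 and Hes5 at 0 in both arms. In R10 the astrocyte sum was 123 and 158 CPM in 2i-LIF and 475 and 858 CPM in FBS-LIF with dox, with 3 of 8 called lower. Their part in the Pclaf difference was not tested.

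Embryonic stem cells were set against all progenitors of the same chemistry. In R10, 5 members were higher (22.4% of 15415 genes) and 1 was lower (23.5%), with a median of 0.45. The higher members were Anln (1.54 ± 0.20), Ect2 (1.49 ± 0.11), Bub1 (1.24 ± 0.25), Kif20a (1.14 ± 0.11) and Hmmr (1.05 ± 0.15). In the stem cells Ect2, the exchange factor that starts the cleavage furrow, had a lowest value of 86.3 CPM, a median of 98.9 CPM and a highest value of 107 CPM. In the progenitors it stood at 32.4 to 39.1 CPM. The shares called are below the shares over all genes in both directions.

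Pclaf was the member called lower, at 105 to 196 CPM (median 152 CPM) in the 7 stem cell libraries and 408 to 573 CPM in the 4 progenitor libraries (-1.73 ± 0.17). Mki67 had a lowest value of 92.6 CPM, a median of 105 CPM and a highest of 134 CPM in stem cells, under the 170 to 254 CPM of the progenitors (-0.95 ± 0.14), so it missed the size of 1. Racgap1, the GTPase-activating partner of KIF23 in the central spindle, was at 43.6 to 83.3 CPM against 91.1 to 122 CPM (-0.91 ± 0.17). The groups did not overlap for any of these 3, but how many of all genes lacked overlap was not counted in either chemistry. Aurkb, the kinase of the passenger complex, was the other member with a negative sign (-0.34 ± 0.12), at 74.5 to 105 CPM (median 86.2 CPM) in stem cells and 92.9 to 122 CPM in progenitors, and its groups overlapped.

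In R9, Mki67 (-1.67 ± 0.30) and Pclaf (-1.28 ± 0.16) were called lower (18.4% of 15746 genes) and Ect2 (1.15 ± 0.34) higher (17.6%), with a median of 0.26. Mki67 was at 43.7 and 88.1 CPM in the 2 stem cell libraries and 177 to 257 CPM in the progenitors. Pclaf was at 153 and 185 CPM against 364 to 498 CPM. Prc1 was at 122 and 142 CPM against 194 to 242 CPM with no overlap (-0.69 ± 0.13), a difference under 1 in size. The other negative signs were of Cenpe (-0.52 ± 0.27), at 73.9 and 48.4 CPM against 63.3 to 106 CPM, Cenpf (-0.27 ± 0.39), at 99.4 and 34.4 CPM against 62.4 to 75.5 CPM, Kif4 (-0.10 ± 0.26), at 40.7 and 27.9 CPM against 27.1 to 45.8 CPM, and Plk1 (-0.02 ± 0.19), at 212 and 209 CPM against 179 to 283 CPM. The groups overlapped for each of these 4. Racgap1 did not repeat its R10 difference, with 130 and 143 CPM against 103 to 136 CPM (0.21 ± 0.15). The Ect2 call in R9 was lost without the O4G stem cell library, without the wild-type progenitor library of replicate 1 and without the OKMS progenitor library. In R10, 6 of the 7 stem cell libraries had 1.81 to 2.35% mitochondrial reads against 0.153 to 1.12% in the progenitors. With the R1 library of 0.124% as the only stem cell library, 3 members were called (28.5% of all genes), the Anln difference was 0.95 and the Bub1 difference was -0.02.

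**Figure D5:**
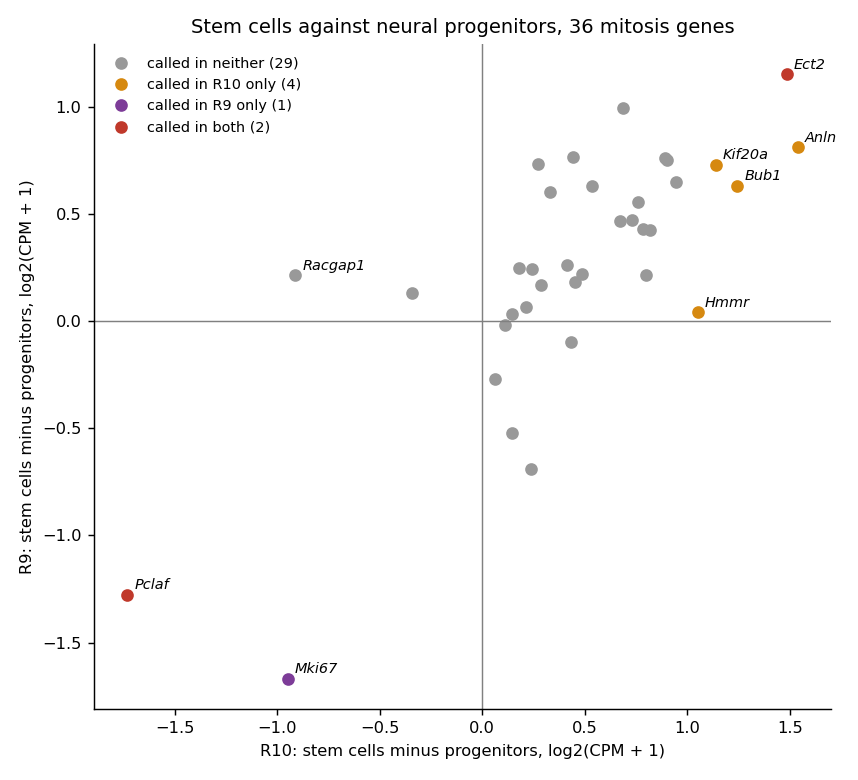
Log2 difference, embryonic stem cells minus progenitors, on the log2(CPM + 1) scale for each mitosis gene in R10 (horizontal axis) and R9 (vertical axis), with 1 point per gene and colours for genes called in R10, in R9, in both or in neither. Pclaf and Mki67 lie lowest on both axes and Ect2 is high on both.

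Replication genes differed more between these cell types. Of 36, 21 were higher in stem cells in R10 and 18 in R9, with medians of 1.04 and 1.01, and 1 was lower in each (Tk1 in R10 and Ccne2 in R9). Other mitosis genes gave 7 higher and 2 lower in R10 and 5 higher and 2 lower in R9, and Pttg1 (securin) was lower in both. These counts of other mitosis genes are shares near or under those over all genes. Mybl2 was higher by 3.43 in R10 and 3.77 in R9. Reprogrammed cells in 2i-LIF against stem cells gave no call among the members, where 9.06% of 15880 genes were called in R10 and 0.711% of 15479 in R9. The median member difference was -0.02 in R10 and 0.23 in R9, with 6 and 10 members at an unadjusted limma p under 0.05.

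Over all libraries of a chemistry the members moved together. Pearson's r of a member with the mean of the other 35, on the log2(CPM + 1) scale, was lowest for Pclaf in R10 (0.83) and for Mki67 and Pclaf in R9 (both 0.82), over 23 and 22 libraries. Racgap1 (0.87) was next in R10 and Anln (0.86) in R9. These correlations describe libraries that share a design with very low wild-type day 2 values, and carry no test.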

How the data were processed

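Mouse progenitor, reprogramming and stem cell libraries were sequenced as long reads, and groups follow the labels. Gene values are CPM deposited by the authors, and transcript values are TPM deposited by the authors. The submitters' processing notes name minimap2 2.24-r1122 and mm10. Dividing by each library's smallest step gave whole reads for 100% of the CPM values above 0 (within 0.02 reads), and so the counts behind the CPM the authors deposited. The class table deposited by the authors, whose units are not used here, and 13 gene columns that matched no sample entered no comparison. Whether counting used strand is not stated. Entries named as antisense to a member, or joined with one, held at most 3.38% of a pair's CPM averaged over all libraries (Kif4). In single libraries the share can be larger, as the Kif4 antisense entry reached 9.37 CPM. That value equals 7 reads in the R9 OKS library of day 6, where Kif4 itself was at 13.4 CPM.

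Tests used limma 3.58.1 in R 4.3.3 on log2(CPM + 1) with a mean-variance trend, over all genes that reached 1 CPM in a number of libraries equal to the smaller group or more (at least 2), two-sided, with p-values adjusted over all genes tested. OKMS and OKS were paired by day and media by system and day. Differences on this scale understate changes of low genes. Counts of members at an unadjusted p under 0.05 are given without the share of all genes at that p. The script was tested on simulated data. Alternatives tried were a filter at 5 CPM or none, a pseudocount of 0.25, quantile normalization, median centring, edgeR 4.0.16 and DESeq2 1.42.0 on the recovered reads, both chemistries together, other groups and leaving out libraries. The members and lists were chosen with earlier results of these data known. All 36 members are accounted for. Values are given for the members of highest mean CPM in each role, Pclaf, Cenpa, Ube2c, Mki67 and Top2a, and members whose sign goes against the majority in the medium, stem cell or 2i-LIF comparisons. In the R10 2i-LIF comparison, where 16 of 36 did, 14 of them are given by their range. Values named beyond this rule (Ccnb1, Kif11 and the highest and lowest of a comparison) were chosen after they were seen. Positions are those of GRCm38, on which all 36 deposited gene spans overlap GENCODE M21.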

Additional observations from a re-analysis of the deposited data

Results flagged for a closer look

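Among 51 group values tested for a sample far from the others, 1 stood out, where chance gives about 5%. Cenpa was at 346 CPM in the OKS progenitor library of R9, while the other 3 R9 progenitor libraries lay between 431 and 437 CPM.

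In R9 the change from progenitor to day 2 differed between wild-type and factor-carrying cells for 4 members by limma's interaction term. The estimates were 6.77 for Top2a, 6.17 for Nusap1, 5.64 for Kif23 and 5.59 for Prc1 on the log2(CPM + 1) scale, with higher values in factor-carrying cells. All 4 genes were at 0 reads in the single wild-type day 2 library, so the sizes depend on the added 1, and without any 1 of the other 6 libraries no member was called. The R10 estimates for the same genes were positive and did not pass after adjustment over all genes.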

How the results depend on the processing

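Counts are of members called, out of 36, and limma was used unless another tool is named. For most alternatives the share of all genes called is not given here, so a change in a count may not be particular to the members. For the R10 factor comparison at day 2 (10 called), the pseudocount of 0.25 gave 4, the minimum of 5 CPM 20, quantile normalization 0, median centring 31, edgeR 32, DESeq2 35, both chemistries together 29 and a fit over 8 libraries 32, and leaving out 1 library gave 0 to 32. The R9 version (27) gave 0 without the filter, 0 with quantile normalization and 6 with DESeq2. The wild-type medium comparison gave 36 or 33 to 36 on leaving out a library in R10, and 0 in R9 with quantile normalization. The interaction gave 32 with DESeq2 and 0 to 36 on leaving out a library in R10 (0), and in R9 (4) it gave 0 without the filter or with quantile normalization, 11 at 5 CPM, 11 with median centring, 29 with edgeR, 15 with DESeq2 and 0 on leaving out any 1 of 6 libraries, while the single wild-type day 2 library could not be left out. Day 2 against day 0 gave 12 with edgeR and 10 with DESeq2 in R10 (0), and in R9 (1) it gave 3 at 5 CPM, 11 with median centring, 29 with edgeR, 9 with DESeq2 and 0 to 6 on leaving out a library. The R9 time course (2) gave 0 at a pseudocount of 0.25, 4 at 5 CPM, 0 with quantile normalization, 24 with median centring, 36 with edgeR, 24 with DESeq2 and 0 to 10 on leaving out a library. The last day against day 0 (0 in both) gave 1 with edgeR in R10, and 6 with edgeR and 0 to 1 on leaving out a library in R9. Day 18 against day 2 in R10 (15) gave 0 without the filter, 27 with median centring, 31 with edgeR, 31 with DESeq2 and 0 to 19 on leaving out a library, and day 20 against day 2 in R9 (27) gave 0 to 29 on leaving out a library. OKMS against OKS gave 27 with DESeq2, 33 with both chemistries and 0 to 30 without a pair in R10 (0), and 25 to 33 without a pair in R9 (30), where 0 were called at days 14 and 20 only, 2 pairs chosen after their small gaps were seen. The 2i-LIF comparison in R10 (0) gave 1 without the filter, 1 at 5 CPM, 1 with edgeR and 1 with both chemistries. Stem cells against progenitors in R10 (6) gave 12 with median centring, 3 with the R1 library without a number only and 6 to 8 on leaving out a library. In R9 (3) it gave 2 to 4, with 2 against wild-type progenitors only, and reprogrammed cells against stem cells in R9 gave 0 to 1 on leaving out a library. The causes were not tested.

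Single members changed sign as follows. Leaving out 1 library gave Pclaf differences of -0.32 (without day 18 OKS) to 2.77 for day 18 against day 2 in R10. For day 20 against day 2 in R9 it gave -0.28 to 1.66 for Pclaf and -0.25 to 1.34 for Mki67, both lowest without day 20 OKS. At days 14 and 20 only, OKMS against OKS in R9 gave Pclaf -0.16, Mki67 -0.60, Nusap1 -0.0777, Prc1 -0.14 and Anln -0.39. With the R1 library without a number only, Bub1 was at -0.0237 in R10. The replicate block could be tried for the R10 wild-type medium comparison only. It gave 36 calls, as without the block, and deviations of same-numbered libraries correlated at 0.47 over 14688 genes, but the labels share no more than a number. Depth limits the wild-type day 2 library of R9, where 114 reads carried the 36 members, most with 0 to 3 reads each.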

Other observations

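The deposited transcript table splits the 36 mitosis genes into 1522 transcripts, from 10 for Nek2 to 119 for Top2a, of which 200 are full-splice matches of an annotated transcript. The transcript with the highest mean TPM of a gene was a full-splice match for 13 of the 36 members. For 25 members that leading transcript was also the most abundant one in both progenitors and stem cells of R10, for 19 in R9, and for 14 in all 4. The Ube2c leading transcript has 6 exons and 1176 bases and took 56.5% ± 1.4 (SD, n = 4) of the gene's TPM in R10 progenitors and 58.8% ± 1.5 (SD, n = 7) in R10 stem cells, and 50.8% and 51.7% in R9. For Bub1 the chemistries differ, with the leading transcript at 7.10% in progenitors and 6.79% in stem cells in R10 and at 54.6 and 68.2% in R9. These shares are per length-corrected TPM, whose depth is unknown, and they were not tested.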
